A study of Mus musculus with 12 samples.

Results

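Preadipocytes of a brown and a white fat cell line of the mouse were compared before any inducer of differentiation had been added. The comparison rests on 6 of the 12 arrays of the series, 3 of brown preadipocytes and 3 of 3T3-L1 white preadipocytes, all taken at day 0. It was made across all genes, and the description turns on 1852 of the 18194 named genes on the array. These are 617 genes of transcription factors and their cofactors, 671 genes of cell surface proteins and 564 genes of secreted proteins, defined as gene families. The other 6 arrays, 3 of white adipocytes at day 10 and 3 of brown adipocytes at day 8, were used only to ask which day 0 differences were also found after differentiation.

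The white line, 3T3-L1, was cloned from mouse embryo fibroblasts and serves widely as a model of white preadipocytes. The brown line is named in the labels only as a brown fat cell line (BFC). Its depot, its strain and the way it was immortalised are not given there, nor is the number of clones. Both lines were grown in DMEM with 1% penicillin-streptomycin, the brown line with 10% fetal bovine serum and the white line with 10% fetal calf serum. Day 0 was 2 days after confluence in each, and the preadipocytes had received no IBMX, dexamethasone, insulin, indomethacin or T3. The adipocyte arrays followed 3 days of induction with IBMX (0.5 mM) and dexamethasone (1 µM), with insulin at 1 µg/mL for the white line and at 20 nM for the brown line. Indomethacin (125 µM) and the thyroid hormone T3 (1 nM) were given to the brown line alone. Line, the serum as it was named and, after day 0, inducers differed together. A difference between the lines and any difference between their media therefore cannot be told apart. The labels number 3 arrays in each group but do not say whether they came from separate cultures, so p-values measure the spread between these arrays.

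White fat stores energy as triglyceride, and brown fat burns it to make heat through the mitochondrial uncoupling protein UCP1. Both arise from mesenchymal precursors. In either kind the nuclear receptor PPARγ and its partner C/EBPα switch on the genes of the fat cell, while EBF2, PRDM16 and ZIC1 mark or direct the brown lineage and DLK1 holds precursors back. Precursors of different depots keep a record of their body position in the HOX transcription factors, and are told apart in practice by surface markers and by the matrix and signalling proteins that they secrete.

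Arrays of a line were close to each other and apart from the other line. Over all probe sets, Pearson's r of log2(signal + 16) was 0.981 to 0.982 among white and 0.98 to 0.982 among brown preadipocyte arrays, and 0.93 to 0.935 between them. Of 13746 genes bright enough to test, 4277 were called higher and 3270 lower in brown preadipocytes at an adjusted p under 0.05. At least 2-fold differences numbered 1573 and 858. The split of the calls depended on how arrays were scaled: 56.7% of calls were higher in brown on the deposited scale, 50.9% after quantile normalization, 63.9% after scaling to the hybridization controls and 35.3% (2704 higher, 4949 lower) with array medians made equal. The median difference of all genes was 0.07, −0.01, 0.15 and −0.18 on these scales, so small differences carry no firm sign, while the large differences described below do. Ratios of 3′ to 5′ control probe sets were 1.4 ± 0.0554 in white and 1.49 ± 0.0626 in brown preadipocytes for beta-actin (SD, n = 3, two-sided exact permutation p = 0.2). They were 0.861 ± 0.0342 and 0.775 ± 0.0296 for Gapdh and 3.63 ± 0.693 and 5.7 ± 0.902 for pyruvate carboxylase (exact permutation p = 0.1 for each, the smallest that 3 against 3 arrays allow).

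The labels were checked against marker genes. Both lines carried mesenchymal genes. The homeobox factor Prrx1 read 8368, 8732 and 9445 on the white arrays and 4416, 4363 and 4439 on the brown arrays. The platelet-derived growth factor receptor Pdgfra, a marker of fat precursors, read 2458, 2733 and 2593 in white and 5915, 5358 and 5270.4 in brown cells. The 12 mesenchymal progenitor markers summed to 70692 to 77494 in white and 62445 to 70517 in brown preadipocytes. The leukocyte gene Ptprc and the endothelial genes Pecam1 and Cdh5 were too dim to test, but 10 endothelial markers summed to 168 to 355 in white and 571 to 714 in brown preadipocytes. Other sums also separated the lines: 13098 to 13572 against 7812 to 8847 for smooth muscle and pericytes, 1066 to 1275 against 532 to 574 for skeletal myoblasts, 91.8 to 178 against 307 to 369 for Schwann cells and 1489.9 to 1699 against 2467 to 2721 for chondrocytes and osteoblasts. A sum follows its brightest genes, and members did not all go its way. Of 7 tested smooth muscle and pericyte markers 3 were called higher and 1 lower in brown, with a median log2 difference of 0.39. Of 8 tested skeletal myoblast markers 1 was called higher and 1 lower, with a median of 0.05. Of the endothelial markers 7 were too dim to test, and of the 3 tested 1 was called higher (median 0.30). Of 4 tested Schwann cell markers 2 were called higher (median 0.68), and of 5 tested chondrocyte and osteoblast markers 3 were (median 0.72). No member of these last lists was called lower. Macrophage markers summed to 3879 to 4299.6 in white and 568 to 734 in brown preadipocytes. The lysozyme genes held most of this gap, Lyz1 (2268, 2402 and 2775 against 56.3, 47.8 and 60.3) and Lyz2 (849, 975 and 787 against 41.5, 48 and 50), while Adgre1 and Csf1r of the same list did not pass the test. Of 7 tested macrophage markers 3 were called lower and 1 higher in brown preadipocytes. The higher one was Cd68, by 0.87 on the log2 scale (adjusted p = 0.0198 in limma), a call lost with equal medians or quantile normalization. The mesothelial genes Msln (361, 456 and 344 against 8.07, 5.51 and 27.2) and Bnc1 (409, 368 and 449 against 9.52, 16.9 and 19.1) were also higher in the white line, where the list summed to 881 to 952 against 127 to 155 in the brown line. The part of such markers in any result was not tested. Genes of the Y chromosome separated the lines: Eif2s3y read 15.9, 18.2 and 22.7 in white and 1145, 1185 and 1329 in brown preadipocytes, and Kdm5d and Uty differed likewise by 4.77 and 4.29 on the log2 scale, while Xist did not pass (36, 55.7 and 10.2 against 60, 46.1 and 41.7).

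Transcription factors and cofactors separated the lines in both directions. Of 474 tested, 89 (18.8%) were at least 2-fold higher and 52 at least 2-fold lower in brown preadipocytes, beside 11.4% and 6.24% of all genes tested. Their median difference was 0.20, beside 0.07 over all genes, and it took the opposite sign (−0.03) with equal medians. Under that scaling 74 were at least 2-fold higher and 67 lower. In 87 and 51 of these genes the arrays of the lines did not overlap either, beside 11.3% and 6.21% of all genes tested, and at any size of difference 61.8% of all genes had no overlap. At 16-fold or more without overlap, 11 of the 474 were higher and 5 lower, beside 1.05% and 0.269% of all genes (145 and 37 genes). The rest of this account gives signals on each array and then the difference of the line means in log2(signal + 16), in brown minus white, with its SE and adjusted p. For genes near the floor of the array this scale understates the ratio of the signals. As these are whole cultures, fewer cells that use a gene and less RNA per cell cannot be told apart.

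The HOX genes, whose 4 clusters record position along the body axis, differed by cluster. Of 23 tested, 9 (39.1%) were at least 2-fold higher in brown preadipocytes and 4 (17.4%) lower, with a median of 0.67. Over all genes these shares were 11.4% and 6.24%, and 54.9% of all genes were called. All 7 tested Hoxc genes were called, 6 of them at least 2-fold higher in brown, and all 3 tested Hoxd genes were lower. Hoxc8 read 0.687, 13.7 and 20.7 on the white arrays and 3779, 3811 and 4877 on the brown arrays, a difference of 7.30 (SE 0.299, adjusted p = 2.66e-08). Hoxc4 read 9.13, 3.15 and 3.37 against 1439, 1621 and 1379, a difference of 6.15 (SE 0.138, adjusted p = 5.33e-10). Hoxc5 read 14.3, 6.37 and 15.8 against 1057, 1068 and 1017, a difference of 5.26 (SE 0.119, adjusted p = 5.67e-10). All white arrays were below the 40th percentile of signal (32.9 to 40.8 on these arrays), and all brown arrays were far above it. Hoxc6 differed by 3.39 (SE 0.43, adjusted p = 7.85e-05) and Hoxc10 by 1.83 (SE 0.427, adjusted p = 0.00426). Hoxc9, a gene often used to mark white fat, differed by 1.03 (SE 0.367, adjusted p = 0.0367), with 149, 107 and 203 in white and 295, 355 and 308 in brown preadipocytes. The Hoxc9 call was lost with equal medians, quantile normalization or a pseudocount of 1, and without brown replicate 1, 2 or 3 or white replicate 1 or 2 (adjusted p between 0.0655 and 0.124). At the 5′ end of the same cluster the order was turned: Hoxc13 read 1127, 1163 and 1096 in white and 88.6, 96.3 and 126 in brown preadipocytes (−3.27, SE 0.305, adjusted p = 8.57e-06).

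The tested Hoxd genes were higher in the white line. Hoxd8 read 1695, 1662 and 1780.4 in white and 45.9, 23.2 and 63.5 in brown preadipocytes, a difference of −4.90 (SE 0.227, adjusted p = 6.15e-08). Hoxd9 read 639, 711 and 626 in white and 24.7, 42.4 and 6.88 in brown cells, a difference of −4.15 (SE 0.28, adjusted p = 8.58e-07). The brown arrays were dim for both genes. Hoxd3 differed by −1.62 (SE 0.15, adjusted p = 7.87e-06). In the other clusters fewer members differed 2-fold: among 7 tested Hoxa genes only Hoxa5 passed 2-fold (1.67, SE 0.0897, adjusted p = 1.64e-07), and among 6 Hoxb genes Hoxb5 (1.45) and Hoxb6 (2.92, SE 0.378, adjusted p = 9.09e-05) did, all higher in brown.

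Factors of the brown lineage were high in the brown line before induction and lower in the white line. ZIC1, a zinc finger factor that marks classical brown fat, read 21.1, 9.86 and 10.2 in white and 4396, 4134 and 5092 in brown preadipocytes (7.28, SE 0.153, adjusted p = 3.9e-10). EBF2, a factor that opens brown fat genes for PPARγ, read 207, 228 and 218 in white and 3062, 3173 and 3022 in brown cells (3.73, SE 0.0649, adjusted p = 1.33e-10). PRDM16, a cofactor that drives brown over muscle fate, read 0.622, 4.29 and 14.3 in white and 407, 404 and 474 in brown cells (4.35, SE 0.179, adjusted p = 2.68e-08). The groups did not overlap for any of them, and Zic1 and Prdm16 on the white arrays lay below the 40th percentile. Of the 12 tested EBF, ZIC and GLI factors, 4 (33.3%, beside 11.4% of all genes) were at least 2-fold higher, the others being Ebf1 (2.21) and Zic4 (2.08). The PPARγ coactivators Ppargc1a and Ppargc1b, which drive mitochondrial genes, differed by 3.31 (SE 0.139, adjusted p = 3.09e-08) and 1.73 (SE 0.101, adjusted p = 3.04e-07). Tbx15, a T-box factor linked to body position of fat, did not pass, with 839, 931 and 949 in white and 892, 929 and 919 in brown preadipocytes (0.01, SE 0.0643, adjusted p = 0.897), and its sign turned with the scaling (−0.26 with equal medians, adjusted p = 0.0222).

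Factors that run the fat cell programme were also higher in brown preadipocytes. Cebpa read 64.7, 46.5 and 41 on the white and 3108, 2852 and 2789 on the brown arrays (5.47, SE 0.132, adjusted p = 8.84e-10). Pparg, already well above the floor in white cells, read 665, 618 and 667 in white and 3080, 3379.9 and 3105 in brown cells (2.27, SE 0.0644, adjusted p = 2.26e-09). Klf15, which acts late in fat cell formation, read 3.18, 7.52 and 1.49 in white and 455, 441 and 308 in brown cells (4.37, SE 0.147, adjusted p = 7.11e-09). In each case the lowest brown array exceeded the highest white array several-fold. Srebf1 and Mlxipl, which drive fatty acid synthesis, differed by 2.89 (SE 0.107, adjusted p = 1.28e-08) and 2.65 (SE 0.284, adjusted p = 2.34e-05), and Zfp423, a factor of preadipocyte commitment, by 3.12 (SE 0.14, adjusted p = 4.97e-08). The hypoxia-inducible factor Epas1 read 88.9, 133 and 104 in white and 4030.2, 4008 and 4157 in brown cells (5.05, SE 0.106, adjusted p = 3.9e-10).

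The 2 largest positive differences of the class were those of Plagl1 and Mycn. Plagl1, an imprinted zinc finger factor of a growth-control network, read 3.96, 18.6 and 1.11 in white and 7498, 7324 and 6948 in brown preadipocytes (8.32, SE 0.243, adjusted p = 2.64e-09). Mycn, a MYC family factor of precursor growth, read 52.6, 49.9 and 22.4 in white and 11524, 9639 and 10001 in brown cells (7.54, SE 0.268, adjusted p = 1.03e-08). White signals for both were near the floor of the array, while brown signals were high. In the other direction Hmga2, a chromatin protein of embryonic growth, read 10808, 10307 and 10475 in white and 470.3, 505 and 420.1 in brown preadipocytes (−4.46, SE 0.0739, adjusted p = 1.33e-10). It was well above the floor in both lines, and the groups did not overlap.

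Other genes of the white line included patterning and early response factors. Tfap2a, a factor of neural crest and skin, read 981, 959.5 and 944 in white and 37.4, 13.6 and 32.2 in brown preadipocytes (−4.53, SE 0.185, adjusted p = 2.58e-08). Klf5, a factor of early fat cell formation, read 969, 902 and 1021 in white and 40.6, 53 and 31.6 in brown cells (−4.10, SE 0.152, adjusted p = 1.3e-08). The AP-1 member Fosl1 read 2116, 1606 and 1611 in white and 159, 123 and 131 in brown cells (−3.54, SE 0.149, adjusted p = 3.15e-08). The white arrays were high for all 3 genes and the brown arrays low, without overlap. The Iroquois homeobox genes Irx1 and Irx2 differed by −3.40 (SE 0.32, adjusted p = 9.15e-06) and −3.73 (SE 0.285, adjusted p = 2.09e-06), the mineralocorticoid receptor Nr3c2 by −3.40 (SE 0.311, adjusted p = 7.55e-06) and the odd-skipped factor Osr1 by −2.82 (SE 0.183, adjusted p = 6.45e-07). Of 24 tested forkhead factors 4 (16.7%, beside 6.24% of all genes) were at least 2-fold lower, among them Foxf2 (−1.88) and Foxd1 (−1.72), while Foxc1 was higher by 2.92 (SE 0.0795, adjusted p = 1.83e-09).

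Among signal-dependent factors more members were higher than lower in brown preadipocytes, a lean that all genes tested shared (11.4% at least 2-fold higher, 6.24% lower). Of 33 nuclear receptors tested, 8 (24.2%) were at least 2-fold higher and 3 (9.1%) lower. Their median was 0.31, and 0.08 with equal medians. The estrogen receptor Esr1 read 5.38, 4.99 and 13.1 in white and 357, 392 and 363 in brown preadipocytes (4.04, SE 0.191, adjusted p = 7.13e-08), and the immediate early receptor Nr4a1 differed by 2.40 (SE 0.23, adjusted p = 1.06e-05). Of 38 tested bZIP factors 9 (23.7%) were at least 2-fold higher and 4 (10.5%) lower, with Nfil3 at 2.03 and Fos at 1.83. The bZIP median was 0.17, and −0.11 with equal medians. The RUNX factors Runx1 and Runx3, known from blood and bone, were higher by 2.33 (SE 0.202, adjusted p = 5.03e-06) and 2.78 (SE 0.249, adjusted p = 6.51e-06), and the ETS factor Fli1 by 3.37 (SE 0.285, adjusted p = 4.29e-06). Homeobox factors outside the HOX clusters had no such lean, with 11 of 67 at least 2-fold higher and 14 lower and a median of −0.04 (4 higher with a pseudocount of 64). Emx2 (3.27, SE 0.162, adjusted p = 9.78e-08) and Lhx9 (2.21, SE 0.152, adjusted p = 9.92e-07) were among the higher ones. With a pseudocount of 64 the 2-fold higher count of the class was 59 in place of 89, since that setting shrinks differences of dim genes.

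**Figure D1:**
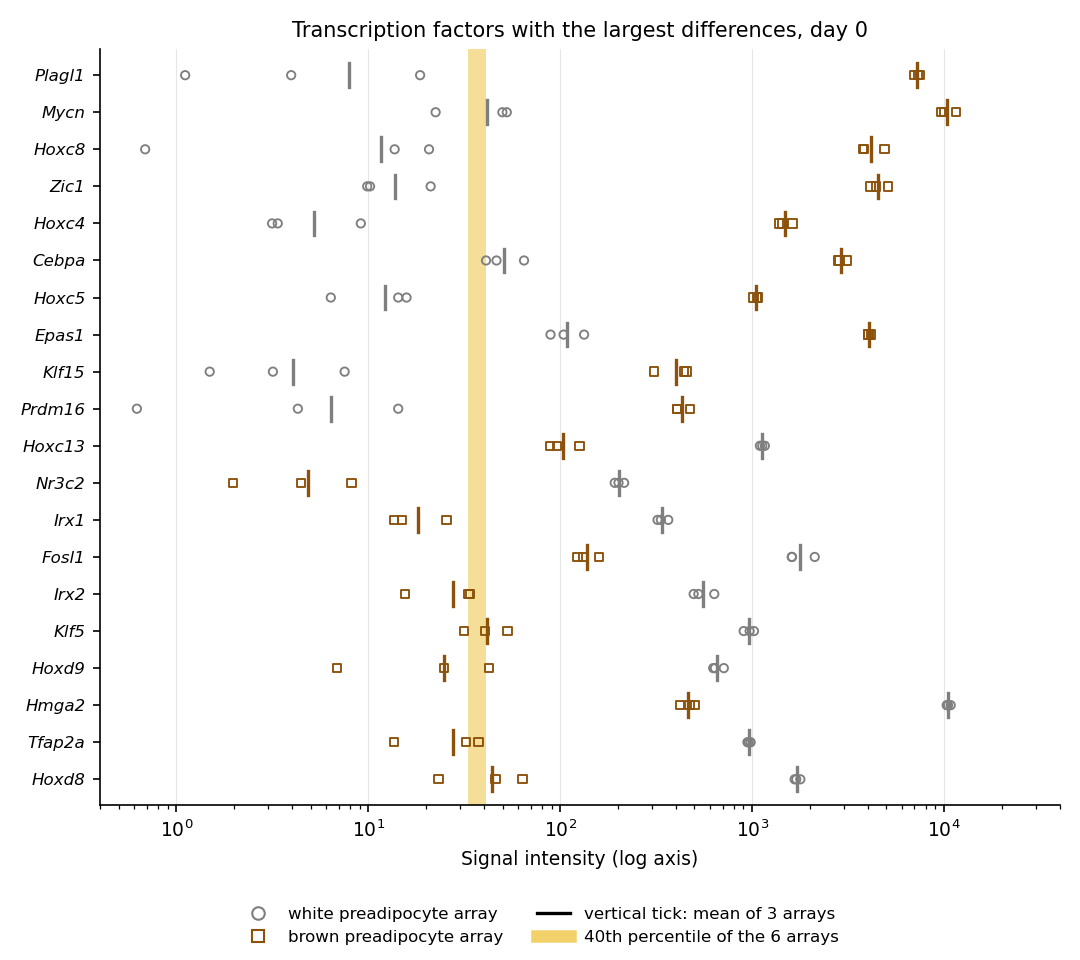
Signal on each of the 3 white (grey circles) and 3 brown (brown squares) preadipocyte arrays, on a log axis, for the 10 transcription genes with the largest positive and the 10 with the largest negative difference; vertical ticks are means of 3 arrays and the yellow band spans the 40th percentiles of the 6 arrays (32.9 to 40.8). Arrays of the lines do not overlap for any gene shown, and for Plagl1, Hoxc8, Zic1, Hoxc4, Hoxc5, Klf15 and Prdm16 all white arrays lie left of the band.

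Among cell surface proteins the lines differed in peptidases, receptors and adhesion molecules. Of 437 tested, 82 (18.8%) were at least 2-fold higher and 57 lower in brown preadipocytes, again beside 11.4% and 6.24% of all genes. The median was 0.13 and turned to −0.09 with equal medians, under which 68 were 2-fold higher and 73 lower. In 80 and 57 of them the arrays of the lines did not overlap either (11.3% and 6.21% of all genes). At 16-fold or more without overlap 10 were higher and 4 lower (1.05% and 0.269% of all genes).

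Membrane peptidases that trim peptide hormones led the surface genes of the brown line. Enpep, aminopeptidase A, which cleaves angiotensin, read 8.13, 11.2 and 20.5 in white and 5612, 5482 and 5141 in brown preadipocytes (7.56, SE 0.16, adjusted p = 3.9e-10). Mme, the peptidase neprilysin (CD10), read 1.79, 2.93 and 12.8 in white and 3675, 3435 and 3579 in brown cells (7.39, SE 0.153, adjusted p = 3.9e-10). Both were below the 40th percentile on all white arrays. They belong to 17 surface markers used to sort fat precursors, of which 16 were tested: 8 were at least 2-fold higher in brown, 1 was lower, and the median was 1.05. Others of the list were Fap, a fibroblast peptidase (3.42, SE 0.343, adjusted p = 1.45e-05), and Nt5e (CD73), which makes adenosine (2.37, SE 0.302, adjusted p = 8.18e-05). Among markers outside that list, Cd34 read 25.5, 5.15 and 16.9 in white and 129.7, 94.1 and 106 in brown preadipocytes (2.03, SE 0.274, adjusted p = 0.000123), and Pdgfra differed by 1.08 (SE 0.0964, adjusted p = 6.23e-06).

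Other markers of mesenchymal precursors were those of the white line. Thy1 (CD90), a glycoprotein of fibroblasts and stem cells, read 1954, 2313 and 2419.5 in white and 47.7, 32.1 and 53.8 in brown preadipocytes (−5.22, SE 0.188, adjusted p = 1.09e-08). Dlk1, the membrane protein that restrains fat cell formation, read 6151, 7369 and 5836 in white and 964, 1014 and 965 in brown cells (−2.69, SE 0.0935, adjusted p = 8.89e-09). Both genes were higher on every white array than on any brown array, but Dlk1 remained clearly above the floor in the brown line. Of the 12 mesenchymal progenitor markers, 7 were called lower and 4 higher in brown preadipocytes (91.7% called, beside 54.9% of all genes).

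Among adhesion molecules, cadherins were more often at least 2-fold lower than higher in brown preadipocytes. Of 32 tested cadherins and protocadherins, 11 (34.4%) were at least 2-fold lower and 3 (9.4%) higher in brown preadipocytes (1 higher with a filter at the 60th percentile). Over all genes these shares were 6.24% and 11.4%. The cadherin median was −0.64. Cdh11, the cadherin of mesenchymal cells, read 8519.6, 8421 and 8714 in white and 74.8, 58.8 and 46.8 in brown preadipocytes (−6.83, SE 0.145, adjusted p = 3.9e-10). The clustered protocadherin Pcdhb16 read 1862, 1839 and 1902 in white and 65, 45.1 and 40.8 in brown cells (−4.85, SE 0.329, adjusted p = 9.04e-07), although protocadherin genes of a cluster are alike in sequence and may share probes. Pcdh7 and Cdh13 differed by −3.23 (SE 0.151, adjusted p = 6.64e-08) and −2.80 (SE 0.0901, adjusted p = 5.27e-09). Immunoglobulin-type adhesion molecules had 6 of 30 members at least 2-fold higher and 1 lower, with a median of 0.11 (3 higher with a pseudocount of 64, the mean of probe sets or less specific probe sets left out). Of these F11r, a tight junction protein, read 42.3, 17 and 3.1 in white and 836, 779.7 and 879 in brown cells (4.67, SE 0.313, adjusted p = 8.15e-07). For the 5 genes named the arrays of the lines did not overlap.

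Growth factor and hormone receptors included large differences in favour of the brown line. Egfr, the receptor of EGF, read 108, 128 and 148 in white and 2414, 2448 and 2399.6 in brown preadipocytes (4.09, SE 0.11, adjusted p = 1.68e-09). Npr3, the receptor that clears natriuretic peptides, read 318, 317 and 312 in white and 6353, 5881 and 5787 in brown cells (4.18, SE 0.114, adjusted p = 1.83e-09). Cd36, which takes up fatty acids in fat cells, read 21.7, 25.8 and 9.61 in white and 1138, 1011 and 1249 in brown cells (5.06, SE 0.156, adjusted p = 3.87e-09). The brown arrays were the higher ones in each, and only Cd36 was below the 40th percentile in the white line. Fgfr2, a receptor of fibroblast growth factors, differed by 2.78 (SE 0.118, adjusted p = 3.29e-08), Acvr1c (ALK7), a receptor of activins and GDF3 in fat, by 2.64 (SE 0.163, adjusted p = 4.62e-07), and Fzd4, a Wnt receptor, by 3.38 (SE 0.18, adjusted p = 1.55e-07). Notch3, a Notch receptor of mural cells, differed by 3.05 (SE 0.144, adjusted p = 7.04e-08).

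Of 99 tested G protein-coupled receptors 12 (12.1%) were at least 2-fold higher and 15 (15.2%) lower in brown preadipocytes. Over all genes these shares were 11.4% and 6.24%, so the higher share was near that of all genes. The receptor median was −0.06. The adhesion receptors Adgre5 (CD97) and Adgrf5 were higher, by 4.43 (SE 0.345, adjusted p = 2.37e-06) and 4.08 (SE 0.197, adjusted p = 8.19e-08). The orphan receptors Gpr85, with 1487, 1614 and 1519.8 in white and 79.6, 39.2 and 98.4 in brown preadipocytes (−4.20, SE 0.292, adjusted p = 1.07e-06), Gpr149 (−3.88, SE 0.401, adjusted p = 1.78e-05) and Gpr135 (−3.05, SE 0.196, adjusted p = 6.1e-07) were lower. Guidance receptors also differed: the Eph receptor Epha7 read 5.07, 1.21 and 14.4 in white and 702, 607 and 702 in brown cells (4.94, SE 0.234, adjusted p = 6.98e-08). Its ligand family member Efna2 read 8.31, 3.54 and 2.89 in white and 410.3, 396 and 331 in brown cells (4.24, SE 0.155, adjusted p = 1.24e-08), while the ephrin Efnb2 differed by −2.77 (SE 0.165, adjusted p = 3.55e-07). For Epha7 and Efna2 all white arrays were near the floor.

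Receptors of cytokines and matrix differed in both directions. The receptor for interleukin-36, Il1rl2, read 555, 465 and 526 in white and 15.2, 22.1 and 17.9 in brown preadipocytes (−3.95, SE 0.191, adjusted p = 8.24e-08). The interleukin-18 receptor subunit Il18rap read 419, 412 and 462 in white and 36.4, 10.8 and 10 in brown cells (−3.75, SE 0.321, adjusted p = 4.66e-06). Il15ra, which presents interleukin-15, was higher in brown by 2.87 (SE 0.161, adjusted p = 2.36e-07). Among 18 tested integrins, which anchor cells to matrix, the laminin receptor subunit Itga6 read 1179, 1071 and 1043 in white and 141, 79.2 and 137 in brown cells (−3.08, SE 0.16, adjusted p = 1.37e-07), and Itgb5 differed by −1.50 (SE 0.103, adjusted p = 9.72e-07). The collagen receptor subunit Itga1 (2.40, SE 0.182, adjusted p = 1.97e-06) and Itga8 (3.19, SE 0.324, adjusted p = 1.61e-05) were higher in brown preadipocytes. No array of a line reached the range of the other line for these genes.

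Secreted proteins held the greatest share of 2-fold differences of the 3 classes. Of 400 tested, 127 (31.8%) were at least 2-fold higher and 46 lower in brown preadipocytes, beside 11.4% and 6.24% of all genes. The median was 0.22, and 0.00 with equal medians, under which 109 were 2-fold higher and 64 lower. Arrays of the lines did not overlap either in 126 and 46 of them (11.3% and 6.21% of all genes). At 16-fold or more without overlap 20 were higher and 5 lower (1.05% and 0.269% of all genes).

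Hormones and carrier proteins of the mature fat cell stood out in the brown line at day 0. Of 43 tested adipokines, peptide hormones and carriers, 21 (48.8%) were at least 2-fold higher and 3 (7.0%) lower, with a median of 0.78. Over all genes these shares were 11.4% and 6.24%. Adipoq, which encodes the fat cell hormone adiponectin, read 13.1, 40.3 and 42.5 in white and 19089, 20791 and 16205 in brown preadipocytes (8.67, SE 0.229, adjusted p = 1.54e-09). Hp, the haemoglobin-binding plasma protein haptoglobin, read 2.91, 2.2 and 5.31 in white and 5084, 5015 and 4629.8 in brown cells (7.98, SE 0.116, adjusted p = 7.63e-11). Rbp4, the carrier of retinol, read 35.5, 46.9 and 32.4 in white and 5485, 5456 and 5008 in brown cells (6.63, SE 0.189, adjusted p = 2.3e-09). The brown arrays were bright for all 3 genes, while the white arrays lay near the 40th percentile or below it. Other hormone genes had the same pattern. Agt, the precursor of angiotensin, read 6.09, 20 and 9.25 in white and 3684, 2999.9 and 3064 in brown cells (6.90, SE 0.179, adjusted p = 1.45e-09), and Retn, the hormone resistin, differed by 3.87 (SE 0.22, adjusted p = 2.49e-07). Kng1, the kininogen from which bradykinin is cut, read 2.84, 1.68 and 2.47 in white and 4815, 5041 and 4765 in brown cells (8.06, SE 0.128, adjusted p = 1.3e-10). Cck, the peptide hormone cholecystokinin, went the other way, with 5029, 4194 and 5051 in white and 3.67, 17.9 and 22.3 in brown preadipocytes (−7.33, SE 0.251, adjusted p = 8.14e-09). Neither Lep, the hormone leptin (4.44, 6.57 and 5.52 against 3.65, 4.44 and 0.804), nor Lrg1, the protein named in the title of the series (5.47, 2.16 and 2.84 against 2.05, 6.22 and 5.75), was above the 40th percentile in either line at this stage, and Lrg1 differed by 0.08 (SE 0.0966, adjusted p = 0.51).

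**Figure D2:**
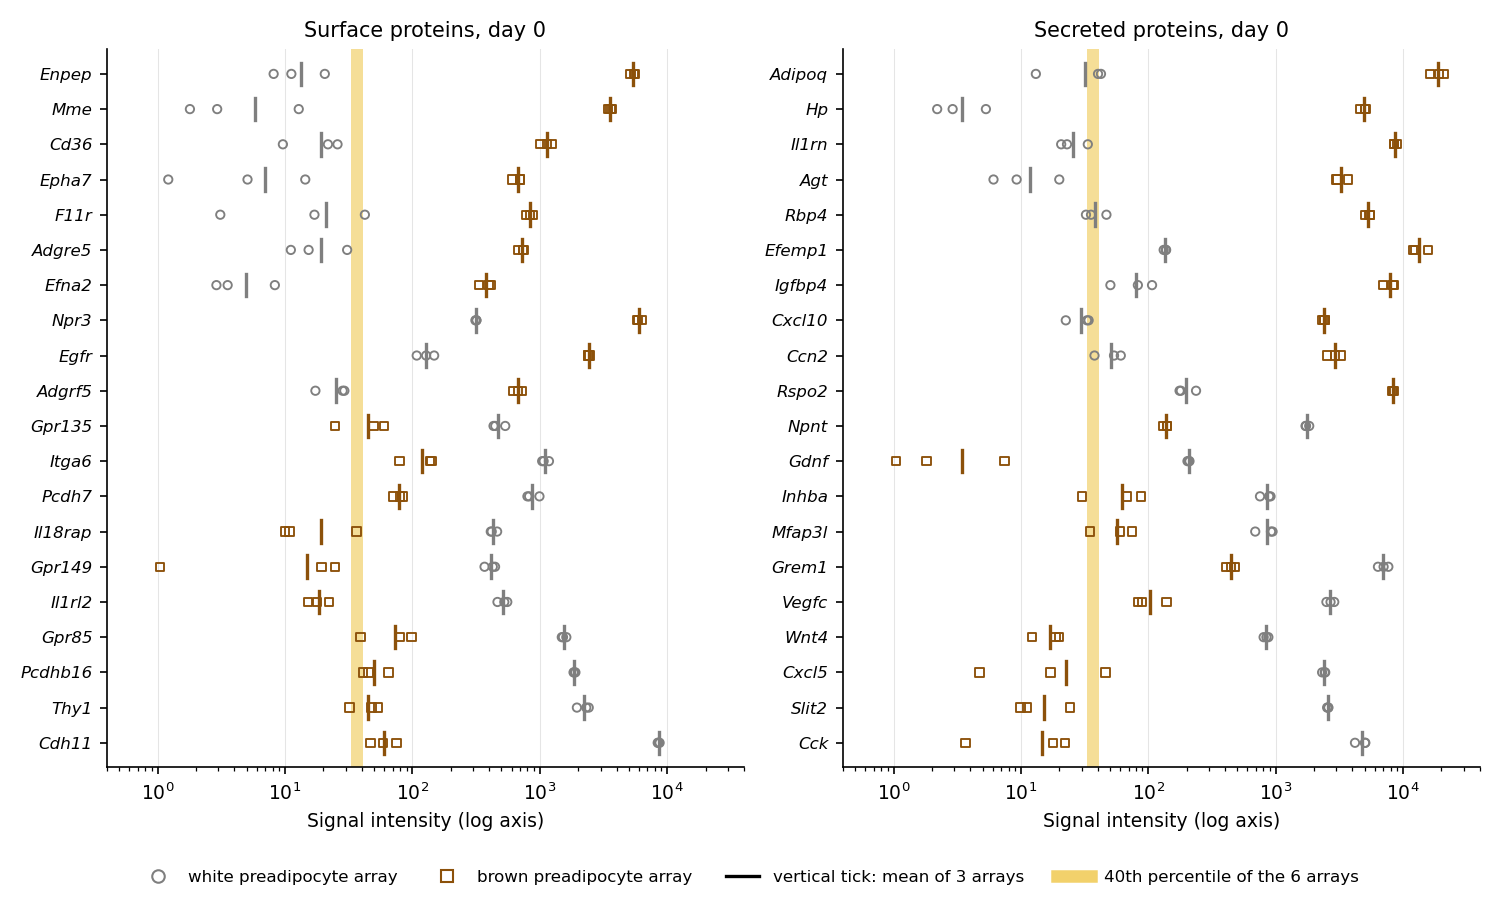
Signal on each of the 3 white (grey circles) and 3 brown (brown squares) preadipocyte arrays, on log axes, for the 10 surface (left) and 10 secreted (right) protein genes with the largest difference in each direction; vertical ticks are means of 3 arrays and the yellow band spans the 40th percentiles of the 6 arrays. Groups do not overlap for any gene, and Enpep, Mme, Hp and Agt are dim on all white arrays whereas Slit2, Cck, Wnt4 and Gdnf are dim on all brown arrays.

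Matrix genes were mostly higher in brown preadipocytes. Of 62 tested matrix glycoproteins, 30 (48.4%) were at least 2-fold higher and 9 (14.5%) lower, with a median of 0.88. Over all genes these shares were 11.4% and 6.24%. Efemp1, a fibulin of elastic fibres, read 138, 132 and 137 in white and 12442, 11995 and 15761 in brown preadipocytes (6.45, SE 0.121, adjusted p = 2.63e-10). Nid2, a linker of basement membrane, read 58.3, 66.1 and 61.3 in white and 2279, 2248 and 2117 in brown cells (4.84, SE 0.101, adjusted p = 3.9e-10). Fbn2, a fibrillin, read 24.7, 9.65 and 5.9 in white and 542, 569 and 495 in brown cells (4.28, SE 0.292, adjusted p = 9.35e-07). Brown arrays were higher in each without overlap. Of 9 tested small leucine-rich proteoglycans, which order collagen fibrils, 5 were at least 2-fold higher, with Ogn at 3.09 (SE 0.155, adjusted p = 1.1e-07) and Fmod at 2.69 (SE 0.315, adjusted p = 4.45e-05). Decorin (Dcn) of the same list was lower, with 600.2, 847 and 685 in white and 29.2, 62.7 and 58.6 in brown preadipocytes (−3.49, SE 0.209, adjusted p = 3.67e-07). Of 32 collagens 9 (28.1%) were at least 2-fold higher and 2 (6.2%) lower (4 lower with equal medians), with a median of 0.59. The higher ones included Col12a1 (2.77, SE 0.0952, adjusted p = 8.27e-09), Col15a1 (3.34, SE 0.493, adjusted p = 0.00023), Col11a1 (3.57) and Col2a1 (3.28). The main fibril genes differed little: Col1a1 by 0.70 (SE 0.134, adjusted p = 0.00133), Col3a1 by 0.82 (SE 0.0968, adjusted p = 4.75e-05) and Col1a2 by −0.22 (SE 0.092, adjusted p = 0.0709).

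Proteins that remodel or modify the matrix followed. Of 60 proteases, inhibitors and cross-linkers tested, 18 (30.0%) were at least 2-fold higher and 7 (11.7%) lower (12 lower with equal medians), beside 11.4% and 6.24% of all genes. The serine protease Htra1 read 91.2, 97.7 and 111 in white and 3145, 3044 and 2588 in brown preadipocytes (4.66, SE 0.18, adjusted p = 1.76e-08), and the metalloprotease inhibitor Timp3 differed by 3.10 (SE 0.207, adjusted p = 8.04e-07). Among IGF-binding and CCN proteins, Igfbp4, which binds insulin-like growth factors, read 82.8, 107 and 50.4 in white and 8505, 8256 and 6966 in brown cells (6.41, SE 0.194, adjusted p = 3.3e-09). Ccn2 (CTGF), a target of mechanical and TGF-β signals, read 53.8, 37.8 and 60.8 in white and 2532, 2929 and 3233 in brown cells (5.46, SE 0.181, adjusted p = 6.55e-09). Both were above every white array on all brown arrays. Ccn5 differed by −2.47 (SE 0.286, adjusted p = 4.03e-05).

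Ligands of the Wnt and TGF-β families hold back or permit fat cell formation. They included large differences in both directions, but more members were at least 2-fold higher than lower in brown preadipocytes. Rspo2, an enhancer of Wnt signalling, read 237, 180.1 and 176 in white and 8519, 8385 and 8205 in brown preadipocytes (5.31, SE 0.328, adjusted p = 4.53e-07), and the Wnt antagonist Sfrp4 differed by 4.15 (SE 0.315, adjusted p = 1.99e-06). Wnt4 itself read 804, 876 and 846 in white and 12.2, 18.7 and 19.9 in brown cells (−4.71, SE 0.301, adjusted p = 5.84e-07). Rspo2 and Sfrp4 were thus genes of the brown line and Wnt4 was one of the white line. Of 22 Wnt ligands and modulators 7 (31.8%) were at least 2-fold higher and 1 (4.5%) lower, beside 11.4% and 6.24% of all genes. The higher count was 4 without brown replicate 2 or 3, with equal medians or after quantile normalization, and 3 with a pseudocount of 64 or the 60th percentile filter. The lower count was 2 with equal medians. Of 34 TGF-β and BMP ligands and antagonists 10 (29.4%) were at least 2-fold higher and 4 (11.8%) lower, with a median of 0.00 (6 higher with a pseudocount of 64). Bmp4, which commits precursors to the fat lineage, read 26.6, 9.92 and 2.99 in white and 1032, 835 and 575 in brown cells (4.87, SE 0.5, adjusted p = 1.71e-05), and the BMP antagonist Chrdl1 was higher by 3.28 (SE 0.141, adjusted p = 3.65e-08). The BMP antagonist Grem1 read 6352, 7034 and 7664 in white and 479.6, 444 and 405 in brown preadipocytes (−3.94, SE 0.26, adjusted p = 7.34e-07). The activin subunit gene Inhba read 911, 753 and 888 in white and 88.1, 67.3 and 30.1 in brown cells (−3.55, SE 0.311, adjusted p = 5.47e-06). Grem1 stayed above the floor in the brown line, whereas Inhba came near it.

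Growth and guidance factors differed in both directions. Of 55 growth factors tested, 9 (16.4%) were at least 2-fold lower and 7 (12.7%) higher in brown, beside 6.24% and 11.4% of all genes, with a median of −0.10. The lymphatic growth factor Vegfc read 2882, 2502 and 2696 in white and 83.3, 139 and 89.6 in brown preadipocytes (−4.52, SE 0.202, adjusted p = 4.85e-08). The neurotrophic factors Gdnf and Bdnf differed by −3.54 (SE 0.199, adjusted p = 2.4e-07) and −2.95 (SE 0.155, adjusted p = 1.46e-07). White arrays were the higher ones for all 3. Of 13 secreted guidance proteins 2 (15.4%) were at least 2-fold higher and 2 (15.4%) lower, with a median of 0.06. Slit2, a guidance protein whose fragment acts on fat, read 2577, 2534 and 2593 in white and 9.93, 24.4 and 11.1 in brown cells (−6.40, SE 0.338, adjusted p = 1.48e-07). Npnt, a matrix ligand of integrins, read 1833, 1730.2 and 1716 in white and 131, 141 and 140 in brown cells (−3.53, SE 0.0883, adjusted p = 1.03e-09). All brown arrays were low for Slit2 and Gdnf, while Npnt kept a clear signal. Sema3e, a semaphorin, was higher in the brown line, with 3.23, 4.66 and 0.608 in white and 339, 294 and 404 in brown cells (4.26, SE 0.288, adjusted p = 8.84e-07).

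Of 52 chemokines and cytokines 12 (23.1%) were at least 2-fold higher and 7 (13.5%) lower in brown preadipocytes, beside 11.4% and 6.24% of all genes. Il1rn, the natural antagonist of the interleukin-1 receptor, read 20.7, 33.5 and 23 in white and 8520.5, 8531 and 8932 in brown preadipocytes (7.71, SE 0.133, adjusted p = 1.33e-10). Cxcl10, a chemokine of the interferon response, read 33, 22.5 and 34 in white and 2411, 2336 and 2418 in brown cells (5.72, SE 0.322, adjusted p = 2.38e-07), and Ccl5 differed by 4.01 (SE 0.497, adjusted p = 6.66e-05). Cxcl5, a chemokine that attracts neutrophils, read 2449, 2315 and 2425 in white and 46.1, 4.74 and 17.1 in brown cells (−6.11, SE 0.31, adjusted p = 1.14e-07). The white arrays were bright for Cxcl5 and dim for Il1rn and Cxcl10. Interleukin-6 (Il6) differed by 2.32 (SE 0.268, adjusted p = 4.06e-05).

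**Figure D3:**
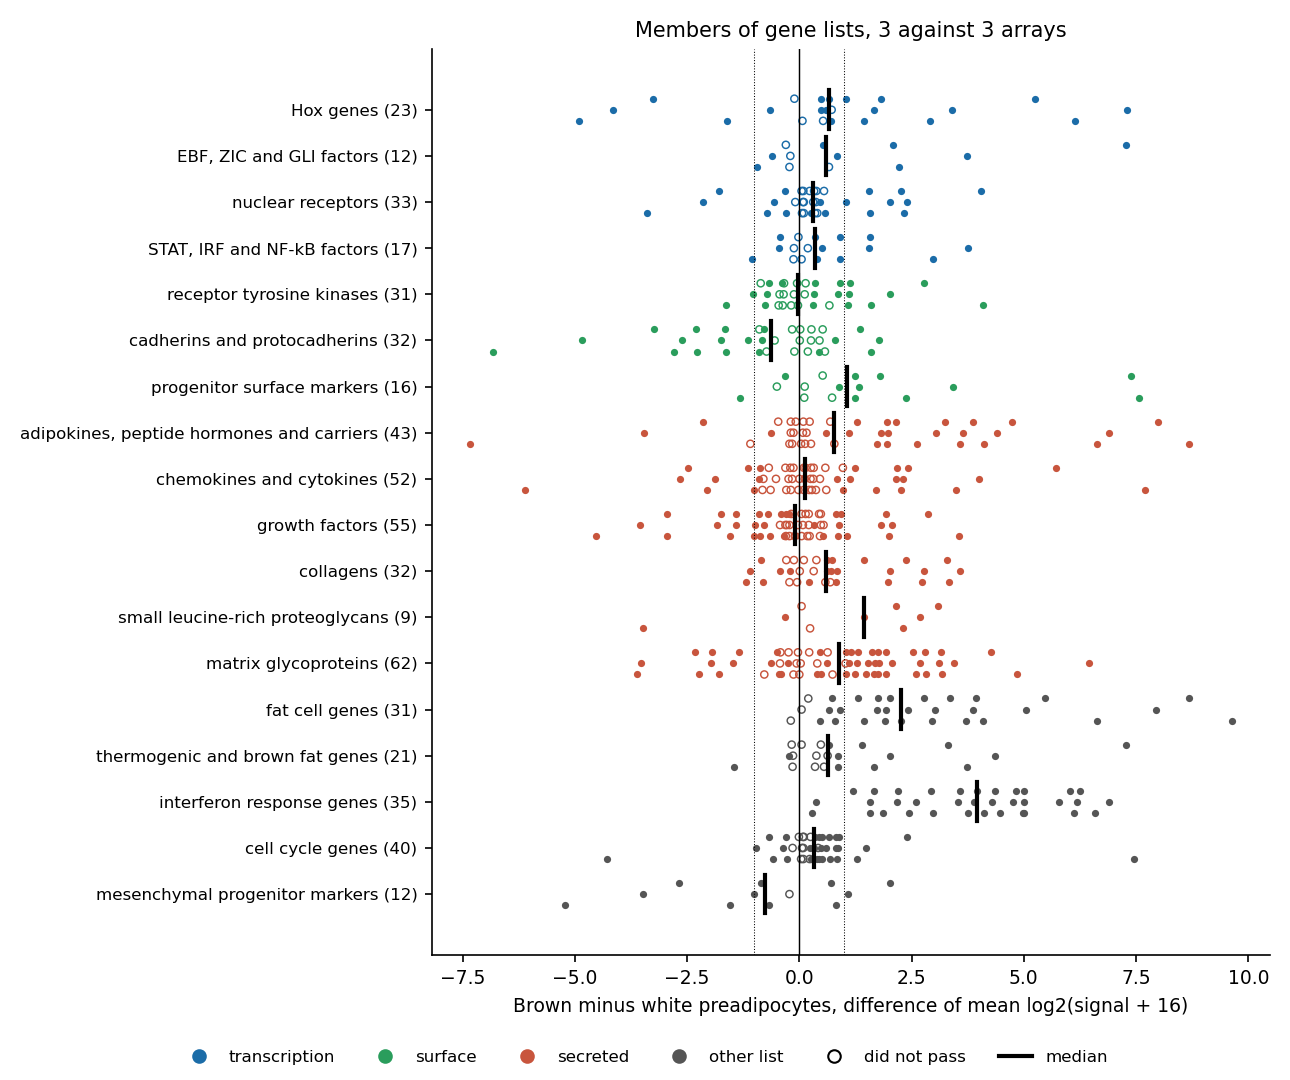
Difference of brown minus white preadipocytes in mean log2(signal + 16), 3 against 3 arrays, for each tested member of 18 gene lists (number of members in brackets). Filled points passed an adjusted p under 0.05, open points did not, black bars are list medians and dotted lines mark a 2-fold difference; the interferon and fat cell lists lie to the right, with medians of 3.95 and 2.27, and the cadherins to the left, with −0.64.

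Genes of the fat cell itself were higher in brown preadipocytes, as were the factors and hormones above. Of 31 tested fat cell genes, 28 were called higher in brown preadipocytes, 23 of them (74.2% of those tested) at least 2-fold. None was called lower in limma, and the median was 2.27. Over all genes 31.1% were called higher and 11.4% were at least 2-fold higher. Car3, a carbonic anhydrase abundant in fat cells, read 34.3, 7.1 and 6.99 in white and 25370.2, 23106 and 22472 in brown preadipocytes (9.63, SE 0.267, adjusted p = 2e-09). G0s2, which restrains triglyceride breakdown, read 3.24, 5.26 and 1.29 in white and 4719, 4828 and 4540.3 in brown cells (7.94, SE 0.0861, adjusted p = 1.32e-11). Fabp4, the fatty acid binding protein of fat cells, was bright in both lines, with 7838, 7764 and 8548 in white and 30127, 27115 and 25020.1 in brown cells (1.76, SE 0.0854, adjusted p = 8.24e-08). Brown arrays exceeded white arrays without overlap for all 3. The hormone-sensitive lipase Lipe differed by 2.77 (SE 0.0918, adjusted p = 6.55e-09), the insulin-responsive glucose carrier Slc2a4 by 3.35 (SE 0.391, adjusted p = 4.33e-05) and the lipid droplet protein Cidec by 3.71 (SE 0.193, adjusted p = 1.37e-07). The brown arrays, labelled as undifferentiated cells, thus carried fat cell genes beside precursor genes such as Pdgfra.

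Ucp1 and some other heat production genes did not share that pattern, although their list leaned to the brown line. Ucp1 read 13.8, 2.8 and 11.6 in white and 30.5, 22.8 and 1.66 in brown preadipocytes (0.35, SE 0.325, adjusted p = 0.405), below the 40th percentile on all 6 arrays (0.77, adjusted p = 0.0141 without brown replicate 3). Cidea (2.72, 12.6 and 26.1 against 22.5, 5.51 and 3.22), Dio2 (62.8, 28.5 and 36.8 against 21.7, 43.5 and 45.3) and Cox8b (7.22, 3.27 and 2.29 against 6.82, 2.41 and 27.1) did not pass either. Of 21 tested thermogenic and brown fat genes 7 (33.3%) were at least 2-fold higher and 1 lower (4 higher with a pseudocount of 64), beside 11.4% and 6.24% of all genes. The list median was 0.63, and 0.44 to 0.69 across the scalings. Its largest 4 differences were those of the regulators Zic1, Prdm16, Ebf2 and Ppargc1a. Of 20 tested white and beige fat genes, 10 were at least 2-fold higher in brown preadipocytes, among them Mest (6.10, SE 0.172, adjusted p = 2.18e-09), Hoxc8, Retn and Tmem26 (2.81, SE 0.345, adjusted p = 6.18e-05).

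Genes of the interferon response, the antiviral programme that cells switch on when interferon binds, were higher in brown preadipocytes throughout the list. All 35 tested were called higher, beside 31.1% of all genes, with a median of 3.95 and no call in the other direction. At least 2-fold higher were 33 of the 35 (94.3%, beside 11.4% of all genes). The transcription factors of the pathway were among them. Irf7 read 68.1, 67.8 and 7.7 in white and 817, 760 and 612 in brown preadipocytes (3.75, SE 0.423, adjusted p = 3.41e-05). Irf9 read 215, 174 and 199 in white and 1744, 1625 and 1545 in brown cells (2.97, SE 0.0884, adjusted p = 3e-09). Stat2 read 38.5, 46.9 and 33.8 in white and 173, 128 and 151 in brown cells (1.58, SE 0.121, adjusted p = 2.09e-06). None of the 3 factors overlapped between the lines, and Irf9 alone was clearly above the floor on every white array. Ifit1, which binds foreign RNA, read 57.5, 49 and 38.5 in white and 6798, 6282 and 5341 in brown cells (6.58, SE 0.175, adjusted p = 1.62e-09). Usp18, which removes the ubiquitin-like protein ISG15, read 20.4, 24 and 4.53 in white and 4125, 3570.4 and 3358 in brown cells (6.89, SE 0.28, adjusted p = 2.51e-08). Every brown array lay above every white array for Ifit1 and Usp18 too. The surface restriction factor Bst2 differed by 2.93 (SE 0.0951, adjusted p = 5.53e-09). In the opposite direction Ifi202b, an interferon-inducible DNA sensor that is not on the list, had the lowest difference of all genes tested, with 4766, 4571 and 4731 in white and 4.01, 7.64 and 2.02 in brown preadipocytes (−7.85, SE 0.205, adjusted p = 1.45e-09). The strain of the brown line is not stated, so low RNA and a target sequence that the probes do not match cannot be told apart for such a gene.

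Upstream sequences of Stat2 and Ifit1 from this list and of the interferon-induced chemokine gene Cxcl10 are shown because such genes were higher together. Each of these sequences holds a match to the motif given below, which most list genes with a promoter entry do not. They are the 250 bases before the gene start, from RefSeq on GRCm38.p6, 5′ to 3′ on the strand of the gene, and capitals mark matches to GAAANNGAAA or its reverse complement TTTCNNTTTC, a core form of the interferon-stimulated response element. Cxcl10, the chemokine, lies at chr5:92348890-92349139 on the minus strand with 1 match, Stat2, the signal transducer, at chr10:128270248-128270497 on the plus strand with 1 match, and Ifit1 at chr19:34640639-34640888 on the plus strand with 2 matches.
Cxcl10: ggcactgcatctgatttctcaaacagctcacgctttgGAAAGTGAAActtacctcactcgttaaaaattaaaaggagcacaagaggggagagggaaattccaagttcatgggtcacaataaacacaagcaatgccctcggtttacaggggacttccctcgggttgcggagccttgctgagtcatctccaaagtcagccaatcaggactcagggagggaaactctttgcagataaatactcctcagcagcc
Stat2: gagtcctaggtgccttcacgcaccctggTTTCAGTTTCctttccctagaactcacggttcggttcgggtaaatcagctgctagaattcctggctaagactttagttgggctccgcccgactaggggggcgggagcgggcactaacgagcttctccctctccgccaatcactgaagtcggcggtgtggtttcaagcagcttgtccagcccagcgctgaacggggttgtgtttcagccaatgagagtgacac
Ifit1: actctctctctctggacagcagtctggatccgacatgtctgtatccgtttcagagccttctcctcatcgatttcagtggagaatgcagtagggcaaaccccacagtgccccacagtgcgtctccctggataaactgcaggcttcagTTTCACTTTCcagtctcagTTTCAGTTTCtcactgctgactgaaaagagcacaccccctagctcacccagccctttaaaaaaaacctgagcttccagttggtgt
The match in Cxcl10 starts 213 bases before the gene start and that in Stat2 222 bases before it, and the matches in Ifit1 start 104 and 85 bases before it. On either strand, 11 of the 27 interferon list genes with an entry in the table (40.7%) held the motif in at least 1 promoter, beside 349 of 11027 tested genes (3.2%) and 978 of all 32851 promoters of this length (3.0%). Among transcription, surface and secreted protein genes outside the list, 35 tested genes held a match. Of these 10 (28.6%) were at least 2-fold higher and 3 (8.6%) lower, beside 211 (22.3%) and 104 of the 947 with a promoter entry. The 10 higher genes include Cxcl10 (5.72), which is interferon-induced but not on the list. Genes outside the list were therefore not free of interferon-induced genes, and whether the shares differ was not tested. A match is a stretch of letters and not a measured binding site.

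Most cell cycle genes tested were called (72.5%, beside 54.9% of all genes), but few of them differed by much. Of 40 tested cell cycle genes 22 were called higher and 7 lower in brown preadipocytes (11 higher with equal medians), with a median of 0.33, and most differences were small: the proliferation gene Mki67 read 6281, 6467 and 6943 in white and 7677, 8424 and 7111 in brown preadipocytes (0.23, SE 0.1, adjusted p = 0.0719). Large differences were found in regulators of the G1 phase. Cyclin D1 (Ccnd1) read 12914, 12694 and 13057 in white and 602, 662 and 675 in brown cells (−4.29, SE 0.0975, adjusted p = 5.81e-10). The CDK inhibitor Cdkn1c read 2.65, 3.54 and 2.93 in white and 3362, 3197 and 3358 in brown cells (7.45, SE 0.106, adjusted p = 7.63e-11). Cdkn2a, the locus of p16 and p19ARF, read 1098, 1049 and 877 in white and 5509.8, 5450.5 and 4982 in brown cells (2.39, SE 0.153, adjusted p = 6.11e-07). Cyclin D1 was thus low in the brown line while both inhibitors were high there, without overlap.

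Imprinted genes, which are expressed from the copy of a given parent, held some of the largest differences. Of 17 tested, 7 (41.2%) were at least 2-fold higher and 3 (17.6%) lower in brown preadipocytes, beside 11.4% and 6.24% of all genes. Plagl1 and Cdkn1c, described above, were joined by Grb10, an adaptor that damps insulin signalling, with 28.1, 31.8 and 14.7 in white and 6172, 5639 and 5211 in brown preadipocytes (7.14, SE 0.158, adjusted p = 4.88e-10), by Mest, and by the noncoding RNA Meg3, with 33.5, 18.1 and 16.3 in white and 2101, 2439.6 and 2324 in brown cells (5.92, SE 0.233, adjusted p = 2e-08). Dlk1, which lies in the same imprinted domain as Meg3, was lower. Each of these genes separated the lines without overlap.

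The adipocyte arrays, which share no array with the day 0 comparison, were used to ask which differences were found again at the end of differentiation. Between adipocytes 30% of the genes tested were called higher and 29.5% lower in brown. Of the 2431 genes with a called 2-fold difference at day 0, 1377 (56.6%) were called with the same sign in adipocytes and 376 (15.5%) with the opposite sign. By direction, the same sign was called in 51.1% and the opposite sign in 19.3% of the 1573 genes higher in brown. For the 858 genes lower in brown these shares were 66.8% and 8.5%. Among the 89 transcription genes that were 2-fold higher in brown preadipocytes, 55 (61.8%) were also called higher in brown adipocytes and 10 called lower. For the 82 surface genes these counts were 37 (45.1%) and 20, and for the 127 secreted protein genes 28 (22.0%) and 57 (44.9%). Of the genes that were 2-fold lower at day 0, 33 of 52 transcription (63.5%), 40 of 57 surface (70.2%) and 34 of 46 secreted protein genes (73.9%) were called lower in brown adipocytes too, beside 66.8% of all such genes. Across genes, which are not independent replicates, Pearson's r between the difference at day 0 and in adipocytes was 0.61 for 474 transcription, 0.52 for 437 surface and 0.26 for 400 secreted protein genes, beside 0.40 for all 13746 genes.

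Most HOX genes kept the sign of their difference. Of 13 HOX genes with a 2-fold difference at day 0, 12 were called with the same sign in adipocytes, with r = 0.97 across the 23 tested. The size of the difference changed in 6 of the 13, beside 1726 of all 2431 genes with such a difference and 50.9% of all genes tested. Zic1 differed by 7.54 (SE 0.153, adjusted p = 2.22e-10) in adipocytes, Hoxc8 by 5.85 (SE 0.299, adjusted p = 7.43e-08), Hoxd8 by −4.64 (SE 0.227, adjusted p = 5.47e-08), Mycn by 6.77 (SE 0.268, adjusted p = 1.2e-08) and Ebf2 by 3.85 (SE 0.0649, adjusted p = 1.37e-10). On the surface Mme differed by 7.66 (SE 0.153, adjusted p = 2e-10), Cdh11 by −6.77 (SE 0.145, adjusted p = 2.89e-10) and Thy1 by −4.89 (SE 0.188, adjusted p = 9.71e-09), and among secreted proteins Rbp4 by 8.35 (SE 0.189, adjusted p = 3.26e-10) and Efemp1 by 7.32 (SE 0.121, adjusted p = 1.37e-10). Each of these genes had the sign it had at day 0. Of the 33 interferon genes that were 2-fold higher at day 0, 21 were also higher in brown adipocytes, at a lower median (1.07 against 4.11).

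Fat cell genes had no common direction between the adipocytes. Of the 23 that were 2-fold higher at day 0, 6 were called higher and 8 lower in brown adipocytes, with a median of −0.20 in place of 3.03. Adipoq read 32117 ± 2551 in white and 26332 ± 497 in brown adipocytes (SD, n = 3), a difference of −0.28 (SE 0.229, adjusted p = 0.318). Pparg differed by 0.07 (SE 0.0644, adjusted p = 0.366) and Klf15 by −0.24 (SE 0.147, adjusted p = 0.185). These are differences between adipocytes that did not pass the test. Cd36, lower in brown adipocytes, differed by −0.45 (SE 0.156, adjusted p = 0.029), Igfbp4 by −0.81 (SE 0.194, adjusted p = 0.00441) and Agt by −3.49 (SE 0.179, adjusted p = 7.62e-08). Of 30 matrix glycoproteins that were 2-fold higher in brown preadipocytes, 5 were called higher and 13 lower in brown adipocytes. Of 5 small leucine-rich proteoglycans all were called lower there. Ogn, one of these, differed by −5.27 (SE 0.155, adjusted p = 1.75e-09) in adipocytes, with 5178 ± 962 in white and 119 ± 25 in brown adipocytes. Pdgfra likewise went from 1.08 at day 0 to −4.34 (SE 0.0964, adjusted p = 2.89e-10), while Npnt went from −3.53 to 2.80 (SE 0.0883, adjusted p = 2.65e-09). The difference between the lines changed with differentiation in 7001 of 13746 genes (50.9%). Among genes 2-fold higher in brown preadipocytes it changed in 115 of the 127 secreted, 60 of the 82 surface and 60 of the 89 transcription genes. The matched count over all genes tested was 1143 of 1573. Such genes were chosen by their day 0 difference, which the contrast subtracts, so a high share was built in.

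**Figure D4:**
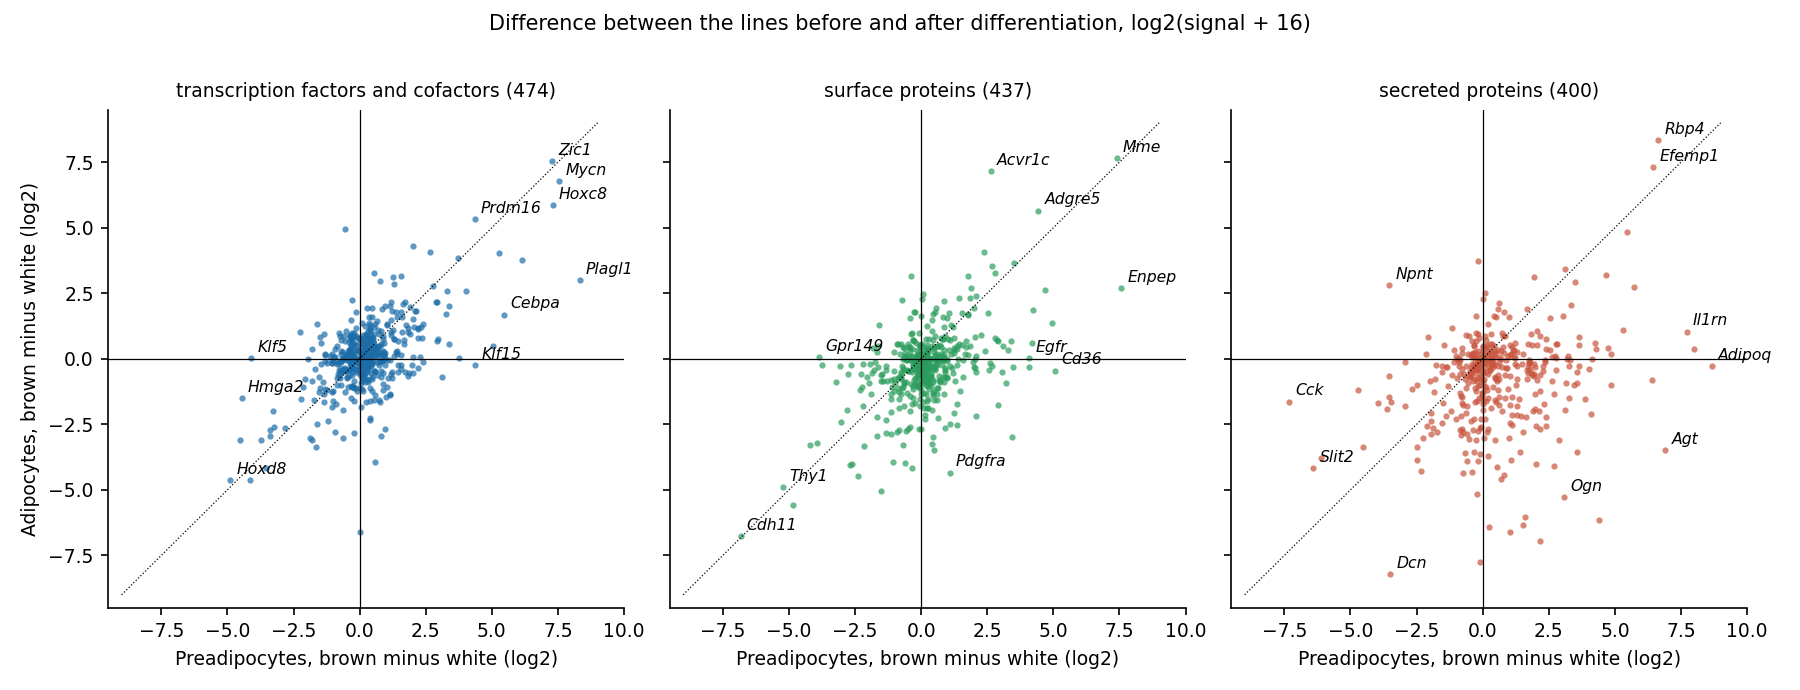
Difference of brown minus white in log2(signal + 16) for preadipocytes on the horizontal axis and for adipocytes on the vertical axis, 1 point per tested gene of the transcription (474), surface (437) and secreted protein (400) classes; the dotted line marks equal differences. Zic1, Mycn, Mme and Cdh11 lie near the dotted line, Adipoq and Klf5 near a difference of 0 in adipocytes, and Agt, Ogn and Npnt changed sign.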

How the data were processed

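RNA of 12 samples (4 groups of 3) was amplified to biotin-labelled cRNA by 3′ IVT and hybridised to 1 array each, per the labels' protocols. The deposited values are linear intensities per probe set, which per the submitters' processing notes came from Affymetrix Expression Console. The version, the summary method and RIN values were not given in the sources used here. The deposited intensities had a mean of 500.003 to 500.004 on every array after trimming 2% at each end, so arrays share a scale set by their bright probe sets. The platform annotation paired 34958 of 45101 probe sets with 1 symbol (34754 of them in RefSeq), 932 with several and 9211 with none. Only those with 1 symbol were used, and each of 18194 genes took its probe set of highest mean. Median signals were 55.3 to 59.0 on white and 66.6 to 70.3 on brown preadipocyte arrays.

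Deposited intensities were converted to log2(signal + 16). Genes above the 40th percentile of their array on at least 3 of 12 arrays were tested (13746, while 4448 were too dim). limma 3.58.1 in R 4.3.3 fitted 4 group means with lmFit and eBayes (8 residual and 1.81 prior degrees of freedom). A gene was called at a Benjamini-Hochberg adjusted p under 0.05 over all genes tested (two-sided), and called 2-fold with a log2 difference of at least 1 in size. Every adjusted p given is from this model. In data simulated for the day 0 comparison (13746 genes) 24, 35, 46 and 50 of 50 genes were called at log2 differences of 0.5, 1, 2 and 4, with 9 false calls among unchanged genes. Only those genes were changed there, a far smaller share than the 54.9% called in the data, so these rates need not hold for the data.

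The gene classes, lists and members were chosen with earlier results of these data known. Named genes are 13 preset regulators, markers and hormones, the 10 largest and 10 smallest differences per class and the 6 largest and 6 smallest of all genes (called, at least 2-fold, no overlap), and up to 4 per list. Other genes, chosen after their values were seen, were Bst2, Cdh5, Cidea, Cidec, Col1a1, Col1a2, Col3a1, Cox8b, Dio2, Hoxa5, Hoxb5, Hoxb6, Hoxc6, Hoxc10, Hoxd3, Il6, Lep, Lipe, Meg3, Mki67, Pecam1, Prrx1, Ptprc, Adgre1, Csf1r, Slc2a4 and the markers of sex chromosomes. Alternatives changed the scaling, pseudocount, filter, probe set rule, variance model, threshold, arrays fitted and replicate block, and left out each array in turn. Ratios of control probe sets were compared by exact permutation (scipy 1.17.1). Promoters came from a RefSeq table on GRCm38.p6.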

Additional observations from a re-analysis of the deposited data

Results flagged for a closer look

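For 14 of the preset and most extreme genes the difference between the lines itself differed between adipocytes and preadipocytes by limma's interaction contrast, which asks whether brown minus white in adipocytes equals brown minus white at day 0. It was called in 50.9% of all genes tested and in 1726 of the 2431 with a called 2-fold difference at day 0, so a call is not particular to these genes. The change on the log2 scale was negative for fat cell genes: −8.95 for Adipoq (SE 0.323, adjusted p = 1.8e-08), −5.51 for Cd36 (SE 0.221, adjusted p = 3.68e-08), −3.80 for Cebpa (SE 0.187, adjusted p = 1.24e-07), −2.19 for Pparg (SE 0.0911, adjusted p = 4.45e-08) and −1.88 for Fabp4 (SE 0.121, adjusted p = 7.56e-07). It was −10.4 for Agt (SE 0.254, adjusted p = 2.7e-09) and −7.21 for Igfbp4 (SE 0.274, adjusted p = 2.67e-08), both lower in brown than in white adipocytes. It was −5.42 for Pdgfra (SE 0.136, adjusted p = 2.88e-09), from 1.08 to −4.34, and −1.12 for Tbx15 (SE 0.091, adjusted p = 3.91e-06), from 0.01 to −1.11. For Dlk1 it was −1.36 (SE 0.132, adjusted p = 1.41e-05), from −2.69 to −4.05, but 0.95 (adjusted p = 0.0142) with less specific probe sets left out and −0.21 (adjusted p = 0.319) with the mean of its probe sets, so its direction depends on the probe set.

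In the other direction the change was 3.81 for Ucp1 (SE 0.459, adjusted p = 6.6e-05), from 0.35 at day 0 to 4.16 between adipocytes, and 0.98 for Prdm16 (SE 0.253, adjusted p = 0.00861). The Prdm16 call was lost with the mean of its probe sets (0.40, adjusted p = 0.104) and with a pseudocount of 1 (1.65, adjusted p = 0.171). It was 2.43 for Lrg1 (SE 0.137, adjusted p = 3.09e-07), which was not above the 40th percentile in either line at day 0 and read 167 in white and 1031 in brown adipocytes on average. For Npnt it was 6.34 (SE 0.125, adjusted p = 1.14e-09), from −3.53 in preadipocytes to 2.80 in adipocytes. Between adipocytes the day of harvest (10 in white, 8 in brown) and the inducers differed with the line, so these cannot be told apart.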

How the results depend on the processing

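Of 162 checks of the main counts, 159 stayed within 1.5 times of the main count, and the 3 that did not came from making array medians equal, which gave 2704 genes higher, 4949 lower and 1405 at least 2-fold lower in brown preadipocytes in place of 4277, 3270 and 858. Of the checks of named genes 5889 kept direction and call, 41 lost the call, 1 gained it (Ucp1 at day 0, 0.77 with adjusted p = 0.0141, without brown preadipocyte replicate 3) and 9 changed sign. The day 0 difference of Tbx15 was −0.26 with equal medians, −0.06 after quantile normalization, and −0.04 (without white preadipocyte replicate 1) to 0.05 when arrays were left out in turn, with −0.00 without brown preadipocyte replicate 2. The change of the line difference was 0.95 for Dlk1 with less specific probe sets left out, −0.04 for Zic1 with the mean of probe sets and −0.08 with a pseudocount of 64, and for Hoxc9 −0.10 with a pseudocount of 64 and −0.13 (without brown adipocyte replicate 1) to 0.73 when arrays were left out in turn. The cause was not tested. Of the checks of list counts 6228 stayed within 1.5 times and 252 did not. With the replicate number as a block, 4206 genes were higher, 3208 lower and 1570 and 855 at least 2-fold so, and the line difference changed in 6863. The correlation of deviations between same-numbered arrays was −0.03 to 0.07, so the numbers do not pair the arrays. The number of arrays limits precision, and genes near the floor have no reliable ratio.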
